A study of Homo sapiens with 8 samples.

Results

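The mRNAs described here encode 9 proteins that bind, bundle or cut actin filaments or tie them to cell junctions: FLNA, ACTN1, ACTN4, DBN1, LIMA1, GSN, PPP1R9A, IQGAP1 and CGN. They were selected on measured values, namely their abundance and editing in sorted processing bodies (P-bodies) against cytosol, and were found by gene symbol among 59414 genes of the count table. All 9 passed the filter on low counts and were listed in each of the 4 editing tables. The sort values below therefore describe the choice and carry no test of the members. Results of the knockdown were also known when they were chosen, so its tests, fitted over all genes, are not independent of the choice.

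The cells were HEK293T, a long-established embryonic kidney line, and every library carried the PB-TRIBE-STAMP label. TRIBE uses the deaminase domain of ADAR to change adenosine to inosine (A-to-I), and STAMP uses an APOBEC deaminase to change cytidine to uridine (C-to-U), so that an RNA that meets the editors keeps a mark. There were 4 groups of 2 libraries: Sorted-Pbodies (total RNA, 50 ng of input), Cytosol (cytoplasmic RNA, 100 ng), and cells given an siRNA against EDC4 (siEDC4) or a control siRNA (siNC), both poly(A) RNA with 500 ng of input. EDC4 is a scaffold of the decapping machinery in P-bodies. Fraction, kind of RNA and input amount went together in the sort and cannot be told apart. No library without editors was analysed here, so edits from other sources are part of every score, and the labels do not say which promoter drove the editors or whether the cells were 1 clone.

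Each library of the sort held from 21186963 to 23716926 gene counts, and the editing tables held between 12048147 and 15947999 reads per library in the sort and between 5697417 and 6294767 in the knockdown. The sorted libraries differed from each other by far more than sampling noise (chi-square per degree of freedom 22.5), the cytosol libraries by less (3.00). The labels do not name separate cultures within a group, so the p-values rest on a spread between libraries that may be technical. Of 11 marker genes of other cell types, 8 were under 1 CPM (counts scaled to a common library total, adjusted by TMM) in all 4 sort libraries, CD3E, HBB and KRT5 were at 0, and the summed level was 19.1 and 22.1 CPM after the sort, against 42.3 and 46.2 CPM for cytosol. Most of that level came from COL1A1 (21.2 and 21.8 CPM in cytosol) and CDH1 (21.7 and 17.6 CPM in cytosol). The 7 markers of the HEK293T background were all detected and summed to between 597 and 680 CPM. Of these only LIN28B was higher after the sort, at 360 and 455 CPM against 107 and 102 CPM in cytosol. VIM was at 143 and 129 CPM against 337 and 349 CPM, and KRT18 at 27.2 and 22.8 CPM against 50.9 and 51.1 CPM. A library gives shares of its RNA, so more of an mRNA in P-bodies and less of the other mRNAs cannot be told apart.

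Actin filaments are held in networks and bundles by cross-linking proteins, shortened by severing proteins and joined to adhesion sites and junctions by scaffolds. Filamin A (FLNA) links crossing filaments, the alpha-actinins ACTN1 and ACTN4 bundle antiparallel filaments, drebrin (DBN1) coats filament sides, and LIMA1 (EPLIN) stabilises bundles and links them to cadherin junctions. Gelsolin (GSN) severs and caps filaments under calcium control, neurabin (PPP1R9A) tethers protein phosphatase 1 to actin, IQGAP1 is a scaffold that binds CDC42 and RAC1, and cingulin (CGN) ties tight junctions to actomyosin. P-bodies gather repressed mRNAs, which in human cells are known to be rich in A and U.

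The members belonged to 2 classes of base composition, and 4 coding stretches, picked to match the GC content of their genes, serve as examples. Each is a window of 60 bases inside 1 exon, the first from the 5′ end whose GC content is nearest to that of the gene's whole coding sequence. They were read from GENCODE v29 transcripts (hg38), as DNA letters on the mRNA strand. Capitals mark each cytidine with A or T on both sides (ACA, ACT, TCA or TCT), because APOBEC1, the deaminase of STAMP, is known to favour cytidines in AU-rich sequence. Such a cytidine is present in 95.7% of 550099 coding windows of this length over 19627 genes, with a median of 4 per window.
DBN1: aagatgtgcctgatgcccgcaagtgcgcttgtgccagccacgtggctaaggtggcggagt
ACTN4: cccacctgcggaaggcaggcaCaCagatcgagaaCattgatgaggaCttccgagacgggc
LIMA1: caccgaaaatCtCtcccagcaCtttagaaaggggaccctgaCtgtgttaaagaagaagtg
PPP1R9A: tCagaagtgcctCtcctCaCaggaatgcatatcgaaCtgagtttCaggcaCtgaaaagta
The DBN1 window (chr5:177467751-177467810, minus strand, exon 5) has 15 cytidines, of which 0 are marked. The ACTN4 window (chr19:38700622-38700681, plus strand, exon 2) has 17, of which 4 are marked. The LIMA1 window (chr12:50222424-50222483, minus strand, exon 4) has 14, of which 4 are marked. In the PPP1R9A window (chr7:94910151-94910210, plus strand, exon 2) 7 of 14 are marked. The marks do not separate the classes, since ACTN4 and LIMA1 have 4 each. The whole DBN1 mRNA has 43.0 such cytidines per kilobase, so the 0 in its window does not stand for the gene. GC content is 62.3% over the DBN1 coding sequence, 60.1% for ACTN4, 46.5% for LIMA1 and 44.9% for PPP1R9A.

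The sort asked which RNAs are concentrated in P-bodies. All 9 mRNAs stood higher in both sorted libraries than in both cytosol libraries, from 2.71-fold (ACTN1) to 12.9-fold (DBN1). By log2 fold change DBN1 ranked 35th of 18745 genes tested, PPP1R9A 38th, GSN 46th, IQGAP1 48th, CGN 52nd, LIMA1 162nd, ACTN4 339th, FLNA 1448th and ACTN1 1499th. The median of the members was 3.25, against -0.03 over all genes. Of all genes, 28.8% were called higher in sorted P-bodies and 29.0% lower (edgeR, adjusted p under 0.05). Since this contrast chose the members, nothing is read from their count.

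The cross-linkers spanned the whole range. FLNA, the member with the highest CPM, was at 5579 and 5524 CPM in sorted P-bodies against 1979 and 2073 CPM for cytosol. Its log2 fold change was 1.45 ± 0.12 (SE from the edgeR fit, n = 2 libraries a group). ACTN1 was at 320.1 and 318 CPM against 114 and 122 CPM (1.44 ± 0.11). Its paralog ACTN4 was at 1103 and 1007 CPM against 218 and 234 CPM (2.22 ± 0.12). Within batches 1 and 2 the log2 ratio was 2.34 and 2.10 for ACTN4 and 1.49 and 1.39 for ACTN1, so ACTN4 had the higher ratio in both. DBN1 was at 1986 and 1664 CPM in sorted P-bodies and only 138 and 145 CPM in cytosol (3.69 ± 0.14). LIMA1 was at 584 and 576 CPM against 93.4 and 96.7 CPM (2.61 ± 0.11). In each of these genes the groups were far apart compared with the gap between libraries of 1 group.

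The severing protein and the scaffolds stood closer together, near a 10-fold difference. GSN was at 323 and 285 CPM in sorted P-bodies against 29.4 and 27.6 CPM in cytosol (log2 fold change 3.41 ± 0.13, SE, n = 2). PPP1R9A was at 353 and 438 CPM against 32.7 and 34.4 CPM (3.56 ± 0.14). The neurabin mRNA had the widest relative gap between its sorted libraries of the 9 members. IQGAP1 was at 2538 and 2769 CPM against 249 and 278 CPM (3.33 ± 0.13). CGN was at 433 and 466 CPM against 48.3 and 46.1 CPM (3.25 ± 0.12). Within a batch the log2 ratios of all 9 members ran from 1.49 (ACTN1) to 3.85 (DBN1) in batch 1 and from 1.39 to 3.67 (PPP1R9A) in batch 2.

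**Figure D1:**
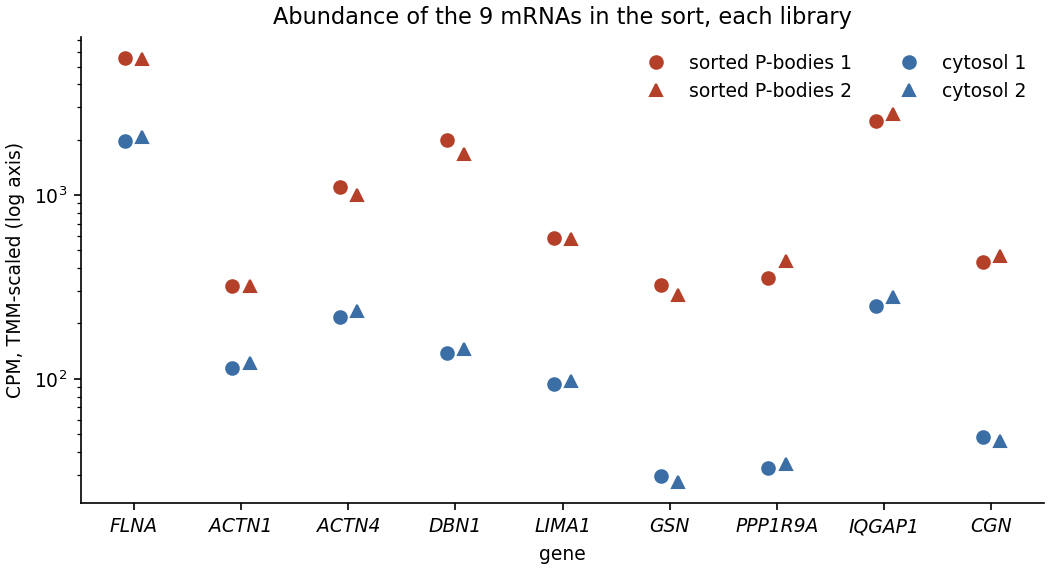
Abundance of the 9 mRNAs (x axis) in TMM-scaled CPM on a log axis, 1 point per library, red for sorted P-bodies and blue for cytosol, circles for batch 1 and triangles for batch 2. In every gene both red points lie above both blue points, with the narrowest gaps for FLNA (1.45 on the log2 scale) and ACTN1 (1.44).

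Together the 9 mRNAs took 13219 and 13047 CPM of the sorted libraries and 2903 and 3056 CPM of cytosol. Of that sum FLNA made up 42.2% and 42.3% among the sorted libraries, against 68.2% and 67.8% for cytosol. Levels of different genes can be compared only per length, here as CPM per kilobase of the exons in the count table. That length can be far from that of 1 mRNA. It was 11018 bases for GSN and 10641 for ACTN1, against 2657 and 3779 in the GENCODE v29 mRNA used here for each. For PPP1R9A the 2 lengths were close, 11194 and 9928 bases. The orders below depend on this divisor, and orders per mRNA length were not computed. In sorted P-bodies the order was FLNA (511 CPM per kilobase), DBN1 (357), IQGAP1 (231), ACTN4 (173), LIMA1 (91.8), CGN (68.0), PPP1R9A (35.3), ACTN1 (30.0) and GSN (27.6). PPP1R9A, ACTN1 and GSN were neighbours that differed by less than the sum of their SDs. In cytosol the order was FLNA (187 CPM per kilobase), ACTN4 (37.0), DBN1 (27.6), IQGAP1 (22.9), LIMA1 (15.05), ACTN1 (11.1), CGN (7.13), PPP1R9A (3.00) and GSN (2.59), and no neighbours were that close.

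The count table places all 9 on different chromosomes of hg38: FLNA (ENSG00000196924.19) on X at 154348524 to 154374634, ACTN1 (ENSG00000072110.15) on 14 at 68874128 to 68979440, ACTN4 (ENSG00000130402.13) on 19 at 38647649 to 38731589, and DBN1 (ENSG00000113758.13) on 5 at 177456608 to 177474401. LIMA1 (ENSG00000050405.13) lies on 12 at 50175788 to 50283546, GSN (ENSG00000148180.21) on 9 at 121207794 to 121332843, and PPP1R9A (ENSG00000158528.12) on 7 at 94907202 to 95296415. IQGAP1 (ENSG00000140575.13) lies on 15 at 90388242 to 90502239 and CGN (ENSG00000143375.15) on 1 at 151510510 to 151538692. Exons of ACTN4 share 14.2% of their bases with CAPN12 on the other strand, which had at most 25 counts in a library. For GSN, ACTN1 and FLNA the shared part was 2.53%, 2.82% and 0.368%, with at most 26 counts in any overlapping gene, and the other 5 had none. The longest identical run of the ACTN1 and ACTN4 mRNAs is 73 coding bases, exon 10 of both (chr14:68892102-68892174, minus strand, and chr19:38717195-38717267, plus strand). It is shown because a read inside it cannot be assigned to either paralog.
ACTN1 and ACTN4: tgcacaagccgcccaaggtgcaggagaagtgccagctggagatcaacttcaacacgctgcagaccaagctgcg
Of 3730 stretches of 50 bases in the ACTN1 mRNA, 34 (0.911%) also occur in ACTN4, so little of either count could come from such reads.

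Of the 9 members, 6 were GC-rich, unlike most mRNAs as high in sorted P-bodies. Across 13360 genes with a coding mRNA in GENCODE v29 (1 representative each, by its curated rank and then length), GC content and the log2 fold change in the sort had a Spearman's rho of -0.58 and a Pearson's r of -0.55. This is a description across genes measured in the same 4 libraries. PPP1R9A (40.2% GC), LIMA1 (42.7%) and IQGAP1 (43.6%) lay on the AU-rich side of the median of 49.1%. The others were GC-rich: ACTN1 55.6%, CGN 56.1%, ACTN4 58.6%, GSN 60.03%, FLNA 62.2% and DBN1 63.4%.

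Of 4350 genes with a GC content of 55% or more, a limit set after the values were seen, 25 (0.575%) reached the log2 fold change of ACTN1, the lowest member. Of 4732 genes under 45% GC, 920 (19.4%) did. The 6 GC-rich members were among those 25. The other 19 included the nonmuscle myosin heavy chains MYH9 (3.86) and MYH14 (3.70), the cytolinker PLEC (3.001), the actin-binding XIRP1 (2.86) and ITPKA (2.20), and also enzymes with no known tie to actin, such as the fatty acid synthase FASN (1.80) and the purine enzyme PFAS (1.68). The median log2 fold change of all GC-rich genes was -0.46, and -0.27 among 1353 of them whose coding sequence was at least as long as that of DBN1, the shortest among the members (1956 bases).

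**Figure D2:**
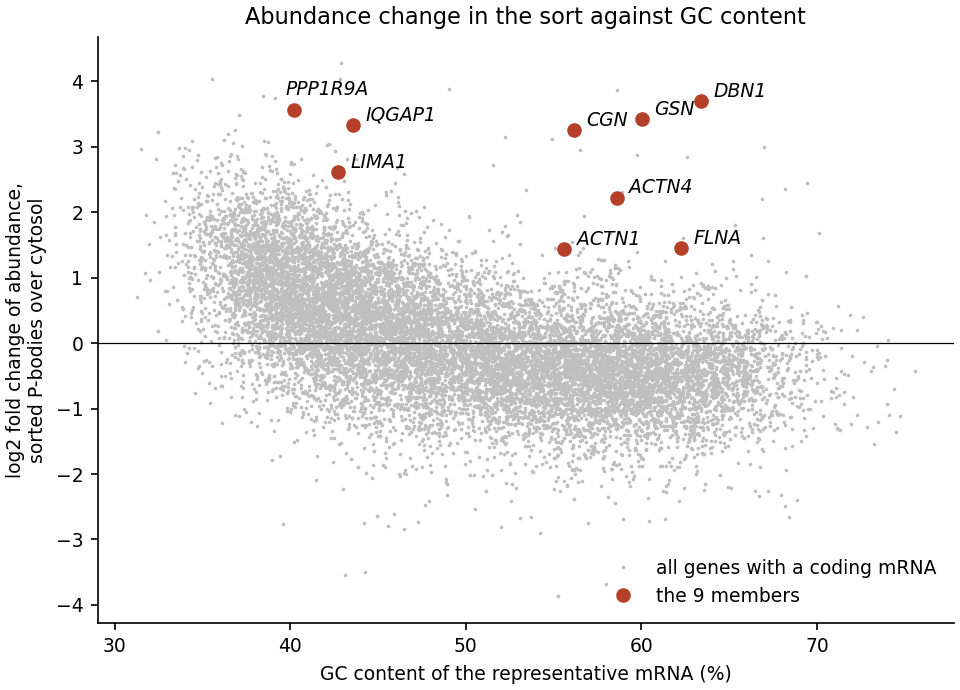
Log2 fold change of abundance, sorted P-bodies over cytosol (y axis), against the GC content of the representative mRNA in percent (x axis), grey points for all 13360 genes and red points for the 9 members. The 6 GC-rich members lie where points are few, since 25 of 4350 genes with at least 55% GC reach the lowest member. Of 4732 genes under 45% GC, 920 do. The 3 AU-rich members lie high among those, with PPP1R9A 38th, IQGAP1 48th and LIMA1 162nd of 18745 genes tested.

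In other features the members were less alike. Their coding sequences ran from 1956 bases (DBN1) to 7944 bases (FLNA), with a median of 2736 against 1431 over all genes. The 3′ untranslated regions ran from 239 bases (GSN) and 323 bases (FLNA) to 6099 bases (PPP1R9A), with a median of 1276 against 1106. Cytidines between A or T numbered 43.0 per kilobase of mRNA in DBN1, 50.4 in GSN, 51.5 in CGN, 53.8 in FLNA, 55.01 in ACTN4, 57.2 in ACTN1, 68.3 in IQGAP1, 75.01 in LIMA1 and 76.9 in PPP1R9A. The median of all genes was 66.1 per kilobase, so the 6 GC-rich members lay below it and the 3 AU-rich members above.

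A-to-I editing hardly followed abundance over all genes, and it did not rise with abundance in most members. The editing score gives the percentage of a gene's reads that carry an edit. Over 10903 genes edited in both fractions, the log2 ratio of the scores and the log2 fold change of abundance had a Spearman's rho of 0.11. The median log2 ratio was 1.37, and 93.4% of genes scored higher in sorted P-bodies. Among the members 3 of 9 did (ACTN4, DBN1 and LIMA1), and the median was -0.09. For 869 other genes within the members' range of abundance change the median was 1.33. For the 11 of these with at least 55% GC it was 0.32.

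Among the cross-linkers, ACTN4 scored 3.04 and 3.08% after the sort against 1.51 and 1.65% for cytosol, where 145 of 9167 reads were edited. DBN1 scored 2.71 and 2.78% against 1.72 and 1.49%, and LIMA1 3.91 and 4.203% against 2.93 and 2.57%. These 3 had both sorted libraries above both cytosol libraries, with log2 ratios of 0.95, 0.77 and 0.56, all under the median of all genes. FLNA went the other way, with 6.57 and 6.35% after the sort and 7.88 and 8.15% for cytosol. Its 8329 edited of 128649 sorted reads make this the best measured score of the 9 (95% exact counting interval 6.34 to 6.61%, against 7.82 to 8.22% in cytosol). ACTN1 scored 3.4996 and 4.11% against 4.27 and 4.21%, a gap smaller than that between its sorted libraries.

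Of the other members, GSN had the lowest A-to-I score, 1.03 and 0.862% after the sort (77 of 8031 reads) against 1.79 and 1.57% for cytosol (20 of 1189 reads). PPP1R9A had the highest, 7.06 and 7.403% against 9.73 and 8.37%. Both were lower in sorted P-bodies in each batch, although their group intervals, 0.757 to 1.20% against 1.03 to 2.59% for GSN and 6.75 to 7.73% against 7.598 to 10.6% for PPP1R9A, overlapped. IQGAP1 scored 3.24 and 3.25% against 3.70 and 3.09%, and CGN 3.79 and 3.88% against 3.89 and 4.29%. In IQGAP1 the sorted scores fell between those of the cytosol libraries. In FLNA, ACTN1, GSN, PPP1R9A and CGN both sorted libraries lay below both cytosol libraries. How many of all genes had libraries apart in either direction was not counted. The intervals given for these scores hold counting error alone, because PCR copies of a molecule were counted as separate reads.

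**Figure D3:**
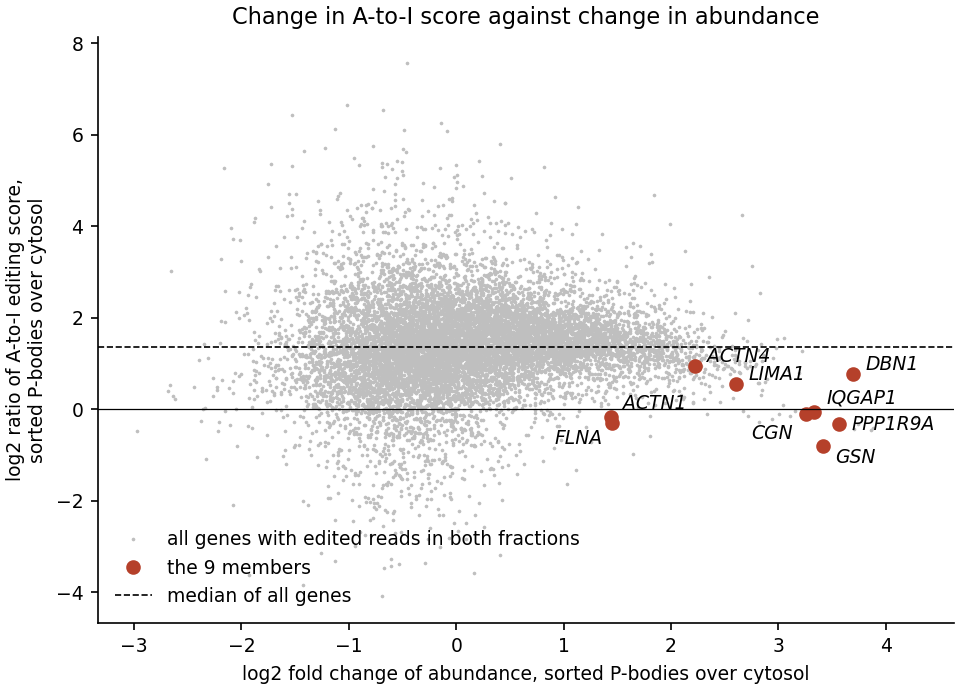
Log2 ratio of the A-to-I editing score, sorted P-bodies over cytosol (y axis), against the log2 fold change of abundance (x axis), for 10903 genes with edited reads in both fractions (grey) and the 9 members (red). All 9 members lie below the dashed median of 1.37, and 6 of them lie below 0.

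In sorted P-bodies 4 of the 6 GC-rich members (DBN1, ACTN4, GSN and CGN) had 0 C-to-U edited reads. Over all 11776 genes with a score, 90.7% were above 0 there. So were 10 of the 11 other genes with at least 55% GC in the members' range of abundance change. DBN1 had 0 edited reads in all 4 sort libraries, among 39123 sorted and 5548 cytosol reads, which allows a score of up to 0.00767% and 0.0541%. ACTN4 had 0 edited of 26571 reads in sorted P-bodies, and 4 of 4364 and 0 of 4794 in the cytosol libraries. GSN had 0 of 8031 against 1 of 616 and 1 of 577. CGN had 0 of 12225 in sorted P-bodies against 6 of 1023 and 4 of 1024 reads in cytosol. For CGN that allows a score of up to 0.0245% after the sort, against 0.489% for cytosol (95% exact counting interval 0.235 to 0.897%). The calling of edited sites is not described in the sources used here, and a listed 0 can come from a filter on sites.

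The 3 AU-rich members split. LIMA1 scored 3.11 and 4.09% after the sort (539 of 15217 reads) against 2.56 and 2.23% for cytosol. PPP1R9A scored 3.10 and 4.51% against 4.83 and 4.17%, so that its groups overlapped. IQGAP1 was hardly edited in spite of its composition, with 20 of 33393 and 26 of 29377 sorted reads against 17 of 4952 and 5 of 5520 from cytosol, scores of 0.0599 and 0.0885% against 0.343 and 0.0906%. FLNA scored 0.252 and 0.243% against 0.151 and 0.158%, higher in both sorted libraries. ACTN1 had edits on 0 of 4957 and 12 of 3845 sorted reads against 8 of 2381 and 22 of 2583 from cytosol, and its libraries of 1 group disagreed by more than its groups did.

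Set against all genes, the median log2 ratio of C-to-U scores was -0.24 for the 5 members edited in both fractions, 2.25 over 9796 genes and 1.99 over 860 other genes in the members' range of abundance change. For the 9 of those with at least 55% GC it was -2.09. Over the 9796 genes this ratio and the log2 fold change of abundance had a Spearman's rho of -0.06. Across 11591 genes the C-to-U score in sorted P-bodies and GC content had a Spearman's rho of -0.74, and in cytosol -0.47. In the fifth of genes with the most GC the median score was 0.628% in sorted P-bodies and 0.326% in cytosol, against 10.4 and 1.64% in the fifth with the least. For A-to-I those medians were 3.26 and 2.03% at the GC-rich end and 10.7 and 3.42% at the GC-poor end.

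**Figure D4:**
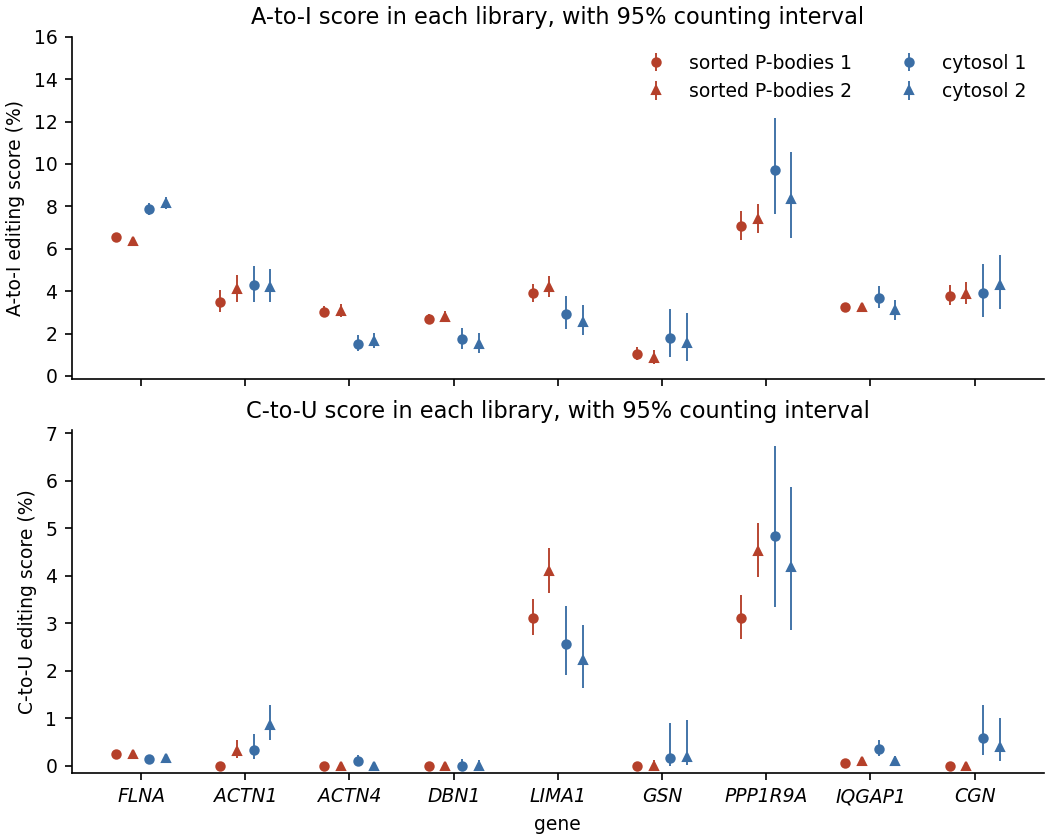
A-to-I (top) and C-to-U (bottom) editing score in percent of each of the 9 genes (x axis) in each sort library, with exact 95% counting intervals, red for sorted P-bodies and blue for cytosol, circles for batch 1 and triangles for batch 2. Only LIMA1 and PPP1R9A exceed 1% for C-to-U in any of the 4 libraries, and the red A-to-I points are clearly above the blue ones for ACTN4, DBN1 and LIMA1.

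The medians of the lists of other actin and junction genes lay far below the members' level in the sort. Single genes such as SVIL, IQGAP2 and PATJ lay within the members' range. Of 104 tested genes in 4 lists, 38 were called higher and 31 lower (edgeR), beside 28.8% and 29.0% of all genes, and their median log2 fold change was -0.05. Among 27 cross-linkers and side binders 9 were higher and 9 lower (median -0.07), and TAGLN2, a transgelin, was lowest at -1.74 ± 0.13 (69.4 ± 10.01 against 232 ± 10.8 CPM, mean ± SD, n = 2; adjusted p = 6.4e-06, edgeR). Among 21 capping and severing proteins 9 were higher and 8 lower (median 0.20), from the gelsolin relative SVIL at 2.72 to the severing protein cofilin (CFL1) at -2.18. Among 35 junction and plaque proteins 13 were higher and 9 lower (median -0.07), from the polarity scaffold PATJ at 1.75 to the plaque protein ZYX at -2.20. Among 21 GTPases and formins 7 were higher and 5 lower (median 0.16), from IQGAP2 at 2.02 to RHOA at -0.96.

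Scaled by library size alone, the median of all genes moved from -0.03 to -0.23, 4257 genes were higher and 6911 lower, and the 4 lists had 34 higher and 45 lower. The medians of the capping and severing proteins and of the GTPases and formins, both above 0 before, then became -0.0048 and -0.04. The members stayed above 0 under it, from 1.24 (ACTN1) upwards.

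Paralogs of the members, picked after their values were seen, had a wide spread of log2 fold changes in the sort. FLNC, the muscle filamin, was at 1.43 ± 0.12, next to FLNA (adjusted p = 1.1e-05, edgeR). PPP1R9B (spinophilin) was at 1.20 and CGNL1 (paracingulin) at 0.93, both well under their relatives PPP1R9A and CGN. The drebrin-like DBNL was lower in sorted P-bodies (-0.42 ± 0.098, adjusted p = 0.0046, edgeR), and IQGAP3 (-0.23, adjusted p = 0.119) and ACTN2 (-0.33, adjusted p = 0.0696) did not pass. The differences between paralogs were not tested.

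Over the 8 libraries, each gene centred within the sort and within the knockdown, the genes nearest to the mean profile of the members by Euclidean distance of log2 CPM included MACF1, SVIL and PLEC, of 9228 genes with at least 10 CPM in every group. MACF1 is a spectraplakin that links actin to microtubules. The log2 fold changes of these 3 in the sort were 2.67, 2.72 and 3.001, and in the knockdown 0.09, 0.12 and 0.02.

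The knockdown asked what changes when the decapping scaffold is depleted. EDC4 itself fell: it had 245 and 186 reads in siEDC4 and 684 and 609 in siNC, a log2 fold change of -1.56 ± 0.14 (adjusted p = 2.6e-25, edgeR), which leaves 33.8% of the control level. Reads per gene of the siNC libraries differed by close to sampling noise (chi-square of 1.02 for each degree of freedom in 10642 genes, p = 0.062), so they were summed and counted as 1 sample, and the spread behind this test came from the siEDC4 libraries alone. None of the 9 members passed, beside 60 of 10642 genes (0.564%) in all. At an unadjusted p under 0.05 there were 1 member (DBN1) and 786 genes by edgeR, and DESeq2 on 4 libraries called 48 genes and no member.

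DBN1 had the largest value, with 171 and 178 CPM in siEDC4 and 142 and 138 CPM in siNC (log2 fold change 0.32, SE 0.11, adjusted p = 0.286 by edgeR). Both siEDC4 libraries were above both siNC libraries, an order whose share over all genes was not counted. With the 4 libraries as separate samples DBN1 passed (adjusted p = 0.0322, edgeR), as did 1.45% of all genes. With the batch number as a block on those libraries it passed too (adjusted p = 0.0018, edgeR, beside 4.9% of all genes, 521 of 10639), and by DESeq2 it did not (adjusted p = 0.179).

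LIMA1 was at 89.3 and 85.5 CPM in siEDC4 against 78.8 and 72.6 CPM in siNC (0.21 ± 0.13, adjusted p = 0.821, edgeR), and PPP1R9A at 45.4 and 39.3 CPM against 37.6 and 38.1 CPM (0.16 ± 0.16, adjusted p = 0.954, edgeR). FLNA, the member with the highest CPM, was at 638 and 575 CPM against 674 and 683 CPM (-0.16 ± 0.11, adjusted p = 0.831, edgeR). In all 3 the groups did not overlap, yet none passed. The same held for DBN1, IQGAP1, CGN, ACTN1 and ACTN4, and only in GSN did the groups overlap. How many of all genes had groups apart in this way was not counted, so nothing is read from it. GSN (0.09), IQGAP1 (0.07) and CGN (0.07) had values above 0, and ACTN1 (-0.09) and ACTN4 (-0.11) below, each smaller than its SE of at most 0.14. In total 6 members were above 0 and 3 below, with a median of 0.07 against -0.0031 over all genes.

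**Figure D5:**
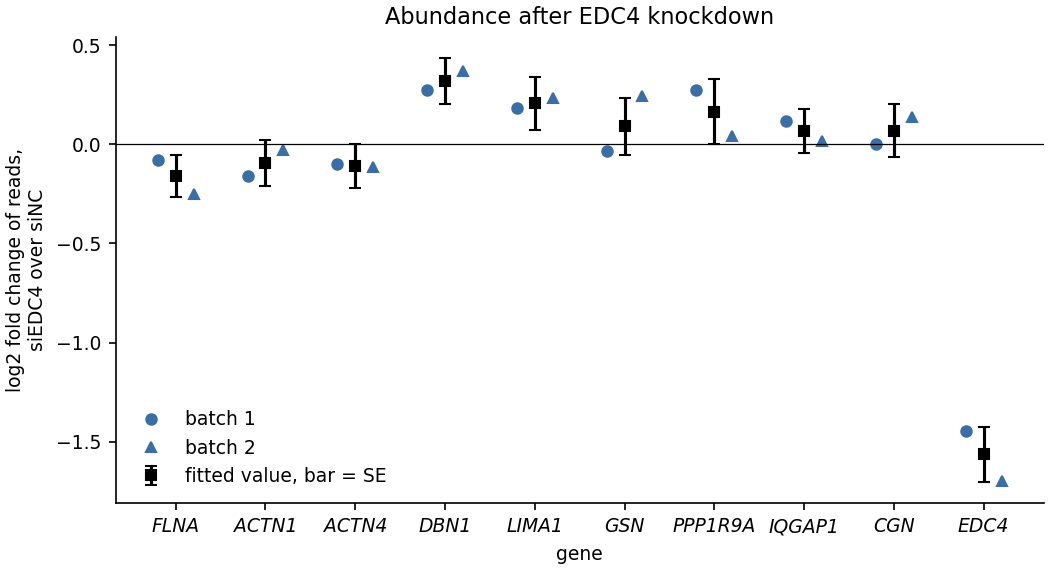
Log2 fold change of reads, siEDC4 over siNC (y axis), for the 9 members and the targeted gene EDC4 (x axis). Squares with bars give the fitted value and its SE, blue circles and triangles the ratio within batch 1 and batch 2. EDC4 lies at -1.56, the members between -0.16 (FLNA) and 0.32 (DBN1).

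Of 89 other actin and junction genes tested in the knockdown, 2 rose and 0 fell (edgeR), beside 0.564% of all genes. RHOB, a GTPase known for a short-lived mRNA, rose from 139.8 ± 1.13 to 230.2 ± 28.5 CPM (SD, n = 2; 0.72 ± 0.12, adjusted p = 1.8e-06, edgeR). CAPG, a capping protein of the gelsolin family, rose from 3.48 ± 0.98 to 8.06 ± 0.23 CPM (1.20 ± 0.32, adjusted p = 0.0414, edgeR). That call on few reads was lost without siNC library 1 (adjusted p = 0.0516, edgeR) or siNC library 2 (0.405), and with the reads of the C-to-U table (0.0502). The bundling protein FSCN1 (0.39, adjusted p = 0.0861), CDC42 (-0.26, adjusted p = 0.491), ANLN (-0.23, adjusted p = 0.633) and IQGAP3 (-0.23, adjusted p = 0.659) did not pass (edgeR). With the block on 4 libraries these 4 passed, beside 4.9% of all genes (edgeR). Without the block only FSCN1 of them passed (adjusted p = 0.0229, edgeR), beside 1.45% of all genes. All 4 were picked for small p-values in this contrast.

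Editing of the members did not pass the test in the knockdown for either editor, and no gene did (0.0% of 9271 tested for A-to-I and 0.0% of 9745 for C-to-U, edgeR on edited and unedited reads). At an unadjusted p under 0.05 there were 502 and 407 genes by edgeR and 852 and 662 by limma on log2 scores, which called 0 as well. None of the members was among the edgeR ones. The siNC libraries were summed into 1 sample in this test too, so its SEs hold the spread of the siEDC4 libraries alone. Edited reads of the siNC libraries did differ beyond counting error (chi-square per degree of freedom 1.30 for A-to-I and 1.31 for C-to-U). With the 4 libraries as separate samples no gene passed for either editor. The 8 members tested for A-to-I had log2 odds ratios from -0.64 ± 0.65 (LIMA1) to 0.46 ± 0.72 (DBN1, SE), with a median of 0.10 against 0.30 over all genes. FLNA had the most edited reads, 56 of 3878 and 86 of 3275 in siEDC4 and 67 of 4198 and 69 of 3922 in siNC (0.25 ± 0.40). PPP1R9A could not be tested, with 1 edited read in 1 library.

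For C-to-U the members' log2 odds ratios had a median of 0.28 against 0.19 over all genes. ACTN4 was highest, with 14 of 1760 and 4 of 1535 reads edited in siEDC4 and 4 of 1936 and 2 of 1690 in siNC (1.68 ± 0.79, adjusted p = 0.992, edgeR). LIMA1 was the most edited, at 6.75 and 6.30% against 5.86 and 6.16% (0.13 ± 0.34). CGN had 21 of 450 and 19 of 433 reads edited in siEDC4, and 21 of 457 and 2 of 395 in the siNC libraries, so that 1 siNC library stood alone (0.77 ± 0.43, adjusted p = 0.992, edgeR). Few edited reads limit these values: a siNC library held between 0 and 50 C-to-U edited reads of any member and between 0 and 69 A-to-I edited reads.

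The same gene could score very differently in the sort and knockdown tables, which were made separately and from different kinds of RNA, so the values stand side by side and were not compared by a test. PPP1R9A had A-to-I scores of 9.73 and 8.37% in cytosol and 0 of 234 and 0 of 219 reads edited in siNC. CGN had C-to-U scores of 0.587 and 0.391% in cytosol and 4.595 and 0.506% in siNC. IQGAP1 had C-to-U scores of 0.343 and 0.0906% in cytosol and 2.79 and 2.72% in siNC, and DBN1, with 0 in every sort library, had 2 of 884 and 4 of 792 reads edited in siNC. LIMA1 scored above 2% for C-to-U in both cytosol libraries and both siNC libraries.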

How the data were processed

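Per the submitters' processing notes, reads were handled with FastQC 0.11.9, cutadapt 1.18, STAR 2.7.9a and featureCounts 2.0.1 on hg38. The annotation, use of strand, treatment of reads with several matches and calling of edited sites were not described (not given in the sources used here). The authors deposited whole-number read counts per gene for the sort, not normalized, per the file headers. For each editor and experiment they also deposited edited reads as counts, reads per gene (entered as estimated counts, since 3 broken lines per table hold values that are not whole; those lines were left out) and the editing score. That score was deposited by the authors as a fraction, edited reads over reads, and is given here as a percentage.

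Samples were grouped by the labels' sample group. For abundance the test was that of edgeR 4.0.16 in R 4.3.3 (quasi-likelihood test, TMM, filterByExpr, Benjamini-Hochberg adjustment over all genes tested, threshold 0.05), in the knockdown on the reads of the A-to-I table. Editing in the knockdown was tested with edgeR on edited and unedited reads, with an effect per library, for genes edited in 2 or more libraries. For this test, as for abundance in the knockdown, the siNC libraries were summed into 1 sample. Alternatives used DESeq2 1.42.0 and limma 3.58.1 (pseudocount 0.8% for A-to-I and 1.09% for C-to-U), other scaling, no low-count filter, other tables and libraries left out. Each SE was derived from the F statistic of its fit. Intervals are exact binomial at 95%, and a 0 was given a limit of 3 counts.

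Replicate numbers equal the labels' batch numbers, which pair the libraries. The correlation of same-numbered deviations over genes was 0.096 in the sort and -0.03 in the knockdown. Features came from GENCODE v29, matched by symbol; the version of the gene identifier was the same for DBN1 and LIMA1 only. The members, lists and alternatives were chosen with earlier results of these data known. Named genes were the members, the highest and lowest of each list in the sort with at least 10 CPM in a group, up to 3 listed genes each way with the smallest adjusted p in the knockdown, the 5 nearest genes and EDC4; paralogs and GC-rich genes were added after their values were seen. Some genes that this rule names are not reported here.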

Additional observations from a re-analysis of the deposited data

How the results depend on the processing

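The members' median log2 fold change in the sort was 3.25 with the replicate block and 3.05 with library size alone. It ran from 3.18 to 3.29 when 1 library was left out. Other actin genes called in the sort numbered 38 higher and 31 lower with the replicate block and 38 and 23 by DESeq2. They ran from 33 to 44 higher and from 24 to 39 lower with 1 library left out. In the knockdown, 1 member (DBN1) was called with 4 libraries and 1 with the replicate block. More members, FLNA among them (-0.24 and -0.09), passed without siEDC4 library 1 or without siEDC4 library 2. The spread there was that of the siNC pair, which differed by close to sampling noise, and the lone siEDC4 library was assumed to vary likewise. The share of all genes that passed in those fits is not given here, so nothing is read from the members' calls in them. Editing called 0 members under every alternative run, the replicate block included. The sort's median log2 A-to-I ratio was -0.09 within batches (replicate block) and ran from -0.18 to -0.06 with 1 library left out. For C-to-U, where listed 0 values allow no ratio, the median difference was -0.137 percentage points, -0.143 within batches (replicate block), and from -0.162 to -0.0173 with 1 library left out, the last without cytosol library 1. The sign of some values that passed no test turned: for A-to-I in the knockdown GSN by limma (0.0175) and FLNA with libraries centred on their medians (-0.0391), and for C-to-U PPP1R9A by limma (0.0603) and LIMA1 centred (-0.0526). With 1 library left out, knockdown abundance ran from -0.0615 to 0.272 for GSN and from -0.597 to 0.0154 for CDC42. A-to-I odds ran from -0.68 to 1.46 (DBN1), -0.36 to 0.47 (GSN), -0.39 to 0.81 (IQGAP1), -1.06 to 0.58 (CGN), -0.22 to 0.66 (FLNA) and -0.0074 to 1.102 (ACTN4). C-to-U odds ran from -0.0199 to 0.818 (GSN), -1.09 to 3.92 (PPP1R9A), -0.35 to 0.0473 (IQGAP1), -0.0220 to 3.14 (CGN) and -0.46 to 0.0269 (ACTN1). In the sort, A-to-I of IQGAP1 ran from -0.19 to 0.0685 on the log2 scale and C-to-U of PPP1R9A from -1.38 to 0.0263 percentage points. Depth limits the knockdown scores, where a member had as few as 219 reads in a library, and edited reads of same-group libraries there differed beyond counting error (chi-square per degree of freedom 1.30 to 1.54).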
